A study of Danio rerio with 2 samples.

Results

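Rab GTPases are small membrane switches that give each compartment of the vesicle traffic system its identity, and they were followed here in sorted cells of the zebrafish embryonic tail. The genes were chosen by name alone, as those whose zebrafish name is rab followed directly by a digit and that held at least 10 unique molecular identifiers (UMIs, tags that count captured RNA molecules) over all wells. This gave 49 genes of 22342 in the tables. The name rule also takes 4 partner proteins (RAB3IL1, rab11fip3, rab11fip1b and RAB5IF) that are not GTPases, and these were kept apart from the other 45. Of 62 genes with a matching name, 13 held fewer than 10 UMIs. The nearest below the limit were RAB6B (ENSDARG00000034522) at 8 UMIs and RAB33A and RAB27B at 7, and the nearest above were RAB30 at 10 and rab11al and RAB15 at 11.

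The study compared macrophages in contact with blood stem and progenitor cells, sorted as doubly fluorescent, with macrophages that were not. Embryos carried mpeg1:EGFP, in which a macrophage promoter drives green fluorescence, and runx1+23:mCherry, in which a stem cell enhancer drives red fluorescence, and all cells came from tails at 3 days post-fertilization (dpf). Single green cells were sorted onto 2 plates, with EGFP+mCherry+ cells in wells 1 to 192 and EGFP+mCherry- cells in wells 193 to 384 of each plate, called the mCherry+ and the mCherry- gate. The position of a well is the one record of its gate, all 384 well barcodes occur on both plates, and the sources used here do not say if each plate had its own clutch or sort. All p-values therefore rest on these 2 plates, whose differences may be technical. In the main tests the spread is what remains after plate and gate are fitted, and it is borrowed in large part from all genes.

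A Rab protein is switched on when an exchange factor loads it with GTP and off when a GTPase-activating protein speeds GTP hydrolysis, and in its active form it recruits effectors that move, tether or fuse vesicles. In macrophages, Rab5 proteins work on the early endosome and the young phagosome, Rab7 proteins take over as these mature and fuse with lysosomes, Rab4 and Rab11 proteins return membrane to the surface, Rab1, Rab2 and Rab6 proteins act between the endoplasmic reticulum and the Golgi apparatus, and Rab3, Rab8 and Rab27 proteins act in delivery to the plasma membrane. By these roles, known mostly from mammals, the members were divided into 16 GTPases of the early endosome and recycling, 9 of the late endosome, lysosome and autophagy, 10 of the endoplasmic reticulum and Golgi, 7 of exocytosis and surface delivery, and 3 others. Many symbols in the gene name table are written in the human style. RAB7A is shared by 3 identifiers, and RAB5A, RAB3A, RAB6B and RAB39B also belong to more than 1, so these are given with their identifier. Whether the counting split reads between identifiers of the same symbol is uncertain, since their sequences were not compared.

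Wells with at least 500 UMIs and 200 genes were kept, 534 of 768, and held 507 to 214558 UMIs each. They were clustered without the Rab genes and named from marker genes. Macrophage-like wells numbered 206 in 3 clusters, with 10 to 13 of 24 macrophage markers raised in each. Neutrophil-like wells numbered 126 in 2 clusters, with 9 of 9 markers raised, so the sorted cells were not all macrophages as labelled. Progenitor-like wells numbered 102. That name is weak, since the larger of its 2 clusters (74 wells) had 3 of 15 progenitor markers raised, cd34, npm1a and ncl. There were 14 muscle-like wells, which held 17% of all UMIs, 8 erythroid-like wells and 78 unnamed wells. The unnamed wells included 17 led by collagen genes. Levels below are UMIs per 1000000 UMIs (CPM) in summed wells. They count 1 tag per RNA molecule and were not scaled by gene length. The level of a class, cluster or range of depth is pooled over both gates and plates unless a gate or plate is named. A sum is that of 1 gate of 1 plate.

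Together the 49 members held 16944 UMIs, 0.272% of all UMIs. The early endosome and recycling group held 35.8% of them, the endoplasmic reticulum and Golgi group 26.9%, the late endosome group 22.6%, the exocytosis group 9.27%, the partner proteins 4.47% and the other GTPases 0.927%. The median share of a well's UMIs that fell on the members was 0.352% in macrophage-like wells, 0.317% in neutrophil-like wells, 0.272% in erythroid-like wells, 0.188% in progenitor-like wells and 0.102% in muscle-like wells, and it was 0.368% in the unnamed wells, which hold the shallow clusters. A macrophage-like well held a median of 35 member UMIs from 15.5 members, so most members were seen in a single well only by a few molecules or not at all.

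In macrophage-like wells the late endosomal RAB7A (ENSDARG00000020497) held the most UMIs of any member (750 UMIs, 339 CPM over all 206 wells). It lay at 218 CPM in mCherry+ and 369 CPM in mCherry- wells of plate 1, and at 351 and 346 CPM on plate 2. Next came RAB1B (285 CPM) and RAB2A (274 CPM), which act early in the secretory route, RAB8B (273 CPM), which acts in delivery to the surface, and the early endosomal RAB5A (ENSDARG00000018602) at 258 CPM. The second RAB7A identifier (ENSDARG00000021287) followed at 239 CPM, RAB10, which acts in recycling and surface delivery, at 217 CPM, the early endosomal RAB5C at 201 CPM, rab1ba at 174 CPM and the recycling GTPase RAB11A at 166 CPM. Each of these 10 genes had UMIs in all 4 sums of macrophage-like wells.

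The members were then compared between macrophage-like and neutrophil-like wells. Because the classes were made from clusters of the same wells, these values are a description with no test. Pooled class levels also weigh the gates unlike, since macrophage-like wells were 106 mCherry- and 100 mCherry+ and neutrophil-like wells 103 and 23. The sum of the 3 mCherry+ neutrophil-like wells of plate 2 is given but was not counted, which left 4 macrophage-like and 3 neutrophil-like sums. In 4 of 49 members every macrophage-like sum lay above every neutrophil-like sum, where 10.0% of 14805 genes did so, and in 4 of 49 every macrophage-like sum lay below, where 8.26% of genes did so. As a family the Rab genes therefore separated these classes about as often as genes in general. Among 28 members with at least 50 UMIs in both classes together, 15 lay within 1.5-fold of each other, 7 were above that in macrophage-like wells and 6 below.

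RAB20, a GTPase of endosomes and phagosomes, had the highest ratio, 112 CPM in macrophage-like and 9.20 CPM in neutrophil-like wells (12.2-fold). Its macrophage-like sums were 43.6 CPM (mCherry+) and 209 CPM (mCherry-) on plate 1 and 73.9 and 109 CPM on plate 2. Its neutrophil-like sums were 0 and 13.2 CPM on plate 1 and 0 CPM (3 wells) and 12.2 CPM on plate 2. All macrophage-like sums thus stood above the neutrophil-like ones, although the mCherry- macrophage-like sum of plate 1 was well apart from the other 3.

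The 3 RAB7A identifiers did not share a pattern. RAB7A (ENSDARG00000021287) lay at 239 CPM in macrophage-like and 33.4 CPM in neutrophil-like wells (7.15-fold), with macrophage-like sums of 214, 377, 211 and 153 CPM (plate 1 mCherry+ and mCherry-, then plate 2 in the same order) and neutrophil-like sums of 9.73, 39.6, 0 and 48.7 CPM. RAB7A (ENSDARG00000020497) was 1.66-fold higher in macrophage-like wells, and its macrophage-like sum of 218 CPM in mCherry+ wells of plate 1 lay below the highest neutrophil-like sum of 225 CPM. RAB7A (ENSDARG00000087243) lay at 121 and 134 CPM, a ratio of 0.906, with overlapping sums. When each well was thinned to 2000 UMIs and shallower wells were left out, RAB7A (ENSDARG00000021287) was seen in 84 of 203 macrophage-like wells (41.4%, exact 95% interval 34.5 to 48.5%) and in 8 of 119 neutrophil-like wells (6.72%, 2.95 to 12.8%). Before thinning the shares were 77.8% and 24.4%, at median depths of 10515 and 8726 UMIs. RAB20 at the same depth was seen in 21.7% (16.2 to 28%) and 3.36% (0.923 to 8.38%) of these wells. These intervals cover counting error only.

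Of the other members higher in every macrophage-like sum, RAB22A, which acts at early endosomes and in recycling, lay at 76.4 and 30.9 CPM (2.47-fold) and RAB10 at 217 and 136 CPM (1.60-fold). The thinned shares of RAB22A were 10.3% (6.52 to 15.4%) and 10.1% (5.32 to 17%), so the order seen in CPM was not seen at 2000 UMIs. These intervals cover counting error only and are too wide to decide that order. Before thinning the shares were 45.8% and 25.2%, with the macrophage-like wells deeper. Of the 4 early endosomal RAB5 genes, 3 stood within 1.5-fold in the classes. RAB5A (ENSDARG00000018602) lay at 258 and 230 CPM, RAB5C at 201 and 213 CPM, RAB5A (ENSDARG00000007257) at 51.1 and 56.9 CPM, while rab5b lay at 36.6 and 64.4 CPM, with overlapping sums.

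Lower in every macrophage-like sum were RAB11B, RAB24, RAB6B (ENSDARG00000031343) and RAB3A (ENSDARG00000043835). The recycling GTPase RAB11B lay at 63.4, 96.4, 94.8 and 131 CPM in macrophage-like wells (plate 1 mCherry+ and mCherry-, then plate 2) and at 240, 290, 318 and 338 CPM in neutrophil-like wells, a ratio of 0.343. At 2000 UMIs per well it was seen in 19.2% (14 to 25.3%) of macrophage-like and 50.4% (41.1 to 59.7%) of neutrophil-like wells. These wells were pooled over gates and plates, and the intervals cover counting error only. The paralog RAB11A ran the other way, at 166 and 105 CPM, but with overlapping sums. RAB24, linked to autophagy, lay at 21.7 and 43.5 CPM. RAB6B (ENSDARG00000031343), a Golgi GTPase best known from neurons, lay at 3.62 and 31 CPM, and 95.5% of its 22.1 UMIs in mCherry+ neutrophil-like wells of plate 1 came from 1 well. RAB3A (ENSDARG00000043835), which acts in regulated secretion, lay at 3.62 and 29.3 CPM, and 1 well held 75.0% of its UMIs in that same sum.

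rab44, a large atypical Rab linked in mice to granule and lysosome release, was at 47.5 CPM in macrophage-like and 135 CPM in neutrophil-like wells. The neutrophil-like sums ran from 16.2 CPM in mCherry+ to 206 CPM in mCherry- wells of plate 1, with 137 CPM in mCherry- wells of plate 2, and overlapped the macrophage-like sums of 11.9 to 89.1 CPM. The Rab11 effector rab11fip1b lay at 40.2 and 81.1 CPM, also with overlap. RAB8B was at 273 and 171 CPM, and its lowest neutrophil-like sum was that of mCherry+ neutrophil-like wells of plate 1 at 38.9 CPM (12 UMIs in 20 wells), against 249 CPM in mCherry- wells of that plate.

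**Figure D1:**
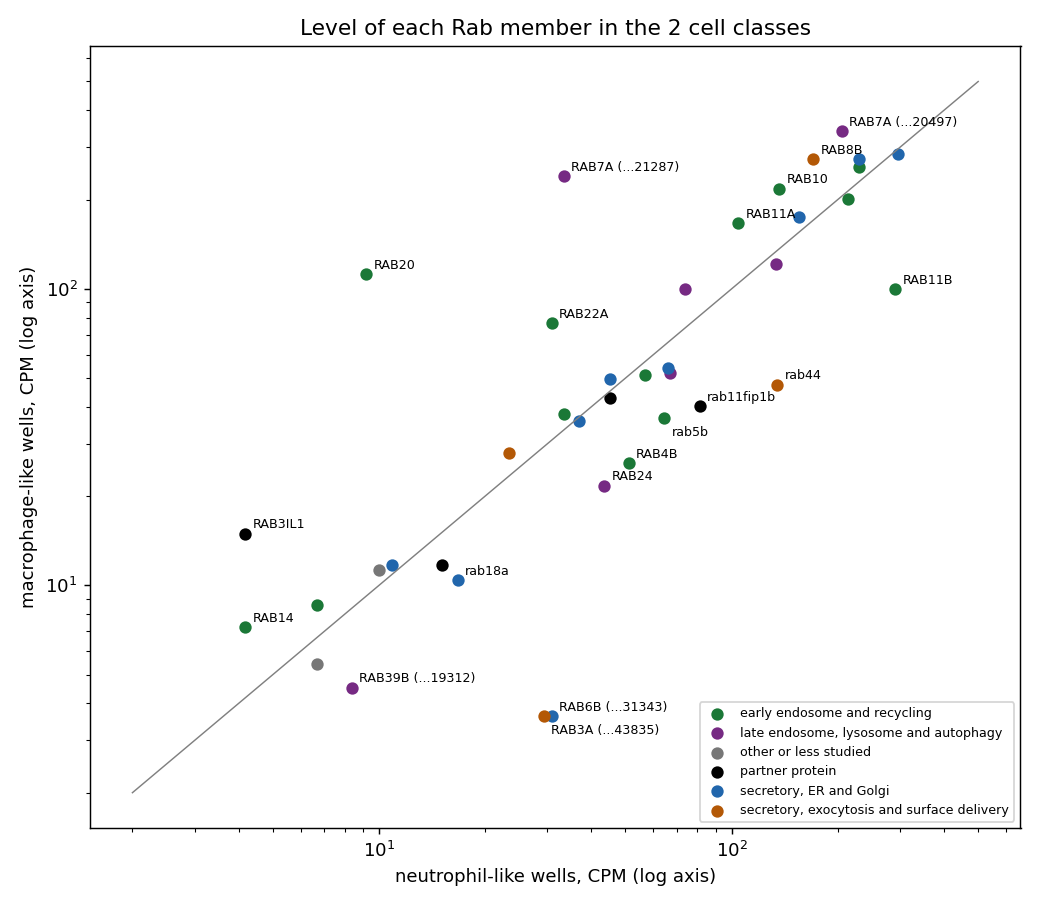
Level of each member with at least 20 UMIs in both classes together, in macrophage-like wells (vertical) against neutrophil-like wells (horizontal), in CPM of the pooled wells on log axes, colored by role, with a line of equality. RAB20 (112 against 9.20 CPM) and RAB7A (ENSDARG00000021287, 239 against 33.4 CPM) lie far above the line and RAB11B (99.9 against 291 CPM) and rab44 (47.5 against 135 CPM) below it.

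**Figure D2:**
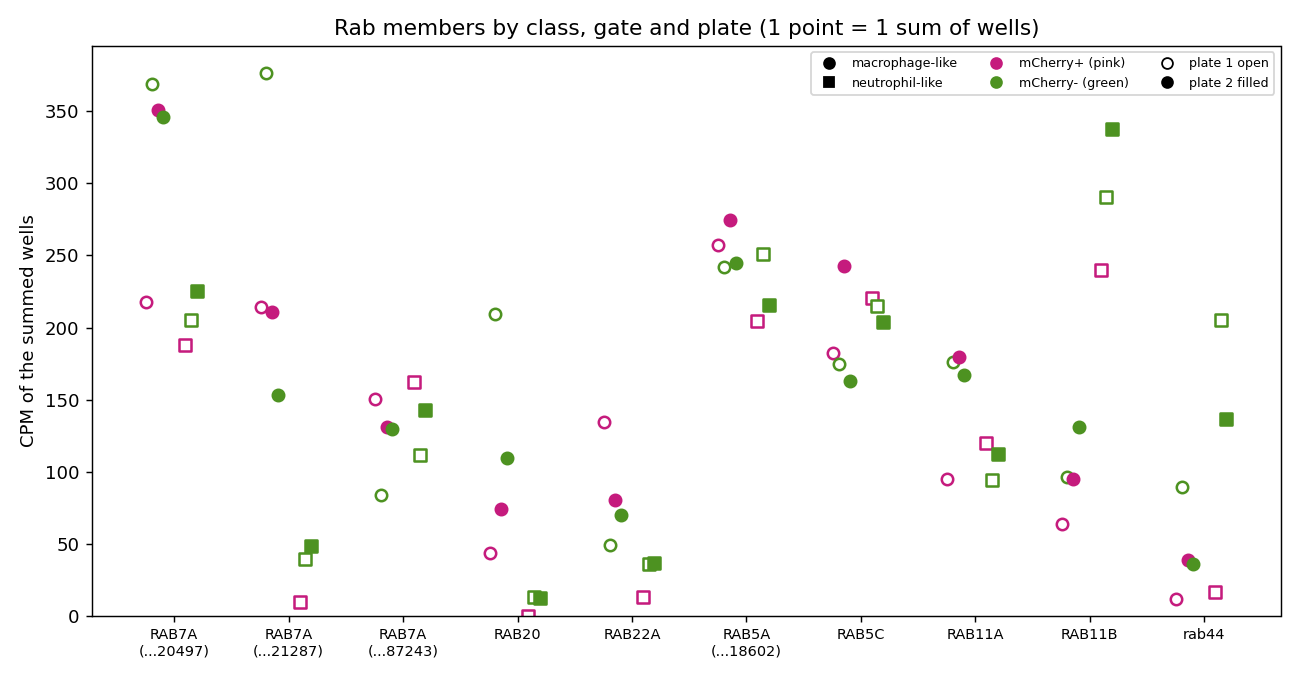
CPM of 10 members in each sum of wells of at least 10 wells, with circles for macrophage-like and squares for neutrophil-like sums, pink for mCherry+ and green for mCherry-, and open symbols for plate 1 and filled for plate 2. All macrophage-like sums of RAB20 and RAB7A (ENSDARG00000021287) stand above the neutrophil-like sums, all those of RAB11B stand below, and those of RAB5A and RAB5C overlap.

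In progenitor-like wells most of the members named above lay under their macrophage-like level. RAB7A (ENSDARG00000021287) lay at 26 CPM, RAB20 at 15.4 CPM, rab44 at 3.85 CPM and RAB32, a GTPase of lysosome-related organelles, at 9.64 CPM, against 99.9 CPM for RAB32 in macrophage-like wells. RAB1B (206 CPM), RAB2A (190 CPM) and RAB7A (ENSDARG00000020497, 170 CPM) were the highest there. RAB5IF, a membrane protein first found as a Rab5 partner, lay above its macrophage-like level (94.5 against 42.9 CPM). In muscle-like wells RAB2A stood at 125 CPM, RAB10 at 82.1 CPM and RAB5IF at 69.7 CPM, and RAB20 and RAB7A (ENSDARG00000021287) at 9.53 and 17.2 CPM.

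Within the macrophage-like class the clusters followed plate, gate or both, so they are not groups that can be compared on their own. Cluster 1 (83 wells) drew 49 wells from the mCherry- gate and 30 from the mCherry+ gate of plate 2. Cluster 5 drew 50 of its 60 wells from the mCherry- gate of plate 1, and held the highest levels of RAB20 (189 CPM, with 94.1 and 68.1 CPM in clusters 1 and 4), RAB7A (ENSDARG00000021287, 327 CPM with 205 and 204 CPM), RAB8B (398 CPM with 211 and 240 CPM) and rab44 (80.6 CPM with 42.4 and 25 CPM). For RAB20, RAB7A (ENSDARG00000021287) and rab44 these levels were those of its mCherry- wells. In its 9 mCherry+ wells of plate 1 RAB20 lay at 56.7 CPM, against 214 CPM in its mCherry- wells of that plate. RAB7A (ENSDARG00000021287) lay at 125 against 361 CPM and rab44 at 0 against 91.5 CPM. RAB8B, at 272 against 425 CPM, still lay above clusters 1 and 4 in those 9 wells. Cluster 4 drew 59 of its 63 wells from the mCherry+ gate and was led by SLC40A1, HMOX1 and marco. It held the highest pooled RAB22A (100.02 CPM with 68.8 and 59.6 CPM) and rab11fip1b (56.9 CPM with 33.3 and 30.6 CPM). In mCherry+ wells of plate 1 RAB22A lay at 153 CPM in cluster 4 (14 wells) and 102 CPM in cluster 5 (9 wells, 9 UMIs). The recycling genes RAB11A and RAB11B were more even among the 3 clusters, at 160 to 170 CPM and 95.1 to 104 CPM.

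The gates were compared over all kept wells first. Counts were summed per plate and gate, and the 4 sums went into edgeR's quasi-likelihood test, with the plate as a block. A positive log2 fold change means higher in mCherry+. The standard error (SE) was worked back from the test, as the size of the fold change over the square root of its F value. A gene was called at a Benjamini-Hochberg adjusted p under 0.05 over all 9904 genes tested. Of 39 members that passed the filter on low counts, 1 was called, lower in the mCherry+ gate, where 4.75% of all genes tested were called in either direction and 2.32% lower. DESeq2 also called 1, beside 3.96% of all genes. At an unadjusted p under 0.05, 6 members (15.4%) passed, beside 17.9% of all genes. The share of members called thus lay near the share of all genes. The median fold change of the members was -0.35, that of all genes 0.03, and 29 of 39 members (74.4%) lay below 0, beside 48.2% of all genes.

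The called member was rab44. It had 23 UMIs (12.3 CPM) in mCherry+ and 161 UMIs (117 CPM) in mCherry- wells of plate 1, and 39 UMIs (19.97 CPM) and 64 UMIs (65.1 CPM) on plate 2. Both mCherry+ sums lay below both mCherry- sums, with a log2 fold change of -2.51 (SE 0.54, edgeR adjusted p 0.0330). The call did not hold without neutrophil-like wells, where the fold change was -1.48 (edgeR adjusted p 0.423), nor without muscle-like wells (-2.41, adjusted p 0.137), without the largest well of each sum (-2.50, adjusted p 0.0708), without the plate as a block (-2.51, adjusted p 0.0859) or with wells thinned to 2000 UMIs (-1.52, adjusted p 0.367). On single plates the fold change was -3.36 and -1.48. Over all alternatives with a test the adjusted p ran from 5.08e-05 to 0.423.

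The gates differed in makeup. There were 23 neutrophil-like wells among the 266 kept from the mCherry+ gate (8.65%) and 103 among the 268 kept from the mCherry- gate (38.4%), and all 9 neutrophil markers had both mCherry+ sums below both mCherry- sums. Their summed level was 3694 to 21034 CPM in mCherry+ and 38592 to 43886 CPM in mCherry- sums. Progenitor-like wells made up 27.4% and 10.8%. Plate 1 gave most of them, 59 of 73 in the mCherry+ gate and 24 of 29 in the mCherry- gate. The summed level of the 15 progenitor markers changed direction between plates. In plate 1 it was higher for mCherry+ (1805 against 1032 CPM), in plate 2 lower (641 against 770 CPM). Of these markers, 1 had both mCherry+ sums above both mCherry- sums, and 2 had both below. The 17 muscle markers summed to 54332 to 110928 CPM in mCherry+ and 4411 to 12716 CPM in mCherry- sums. How far this makeup of the gates accounts for the member values over all wells was not tested beyond the fits named above.

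In 16 of 39 members (41%) both mCherry+ sums lay below both mCherry- sums in CPM, where 21.3% of all genes tested did so, and in 2 (5.13%) both lay above, where 23.6% did. The 16 were RAB20, both RAB5A identifiers, RAB5C, rab5b, RAB4B, RAB11B and RAB35 of the early endosome and recycling group, RAB7A (ENSDARG00000020497), RAB32 and RAB24 of the late endosome group, RAB1B and rab1ba of the Golgi group, and rab44, RAB8A and RAB8B of the exocytosis group. The 2 above were rab41 and rab18a. By group, 11 of 13 early endosome and recycling members lay below 0 (median -0.45), as did 5 of 6 late endosome members (median -0.77), 7 of 9 Golgi members (median -0.19) and 3 of 5 exocytosis members (median -0.82, with rab44 the one call). Of all genes tested, 48.2% lay below 0. The mCherry+ sums held fewer neutrophil-like and more progenitor-like wells. Muscle-like wells, mCherry+ against mCherry-, were 3 and 3 on plate 1 (median 109690 and 23177 UMIs) and 6 and 2 on plate 2 (122333 and 16009 UMIs). Their UMIs count in the total behind each CPM. With edgeR's scaling, RAB5C, one of the 16, was at a log2 fold change of 0.056 on plate 2 alone. In muscle-like wells the members held a median of 0.102% of a well's UMIs, beside 0.352% in macrophage-like wells. How far fewer cells of a type, a larger muscle-like share or less RNA per cell account for these counts was not tested.

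**Figure D3:**
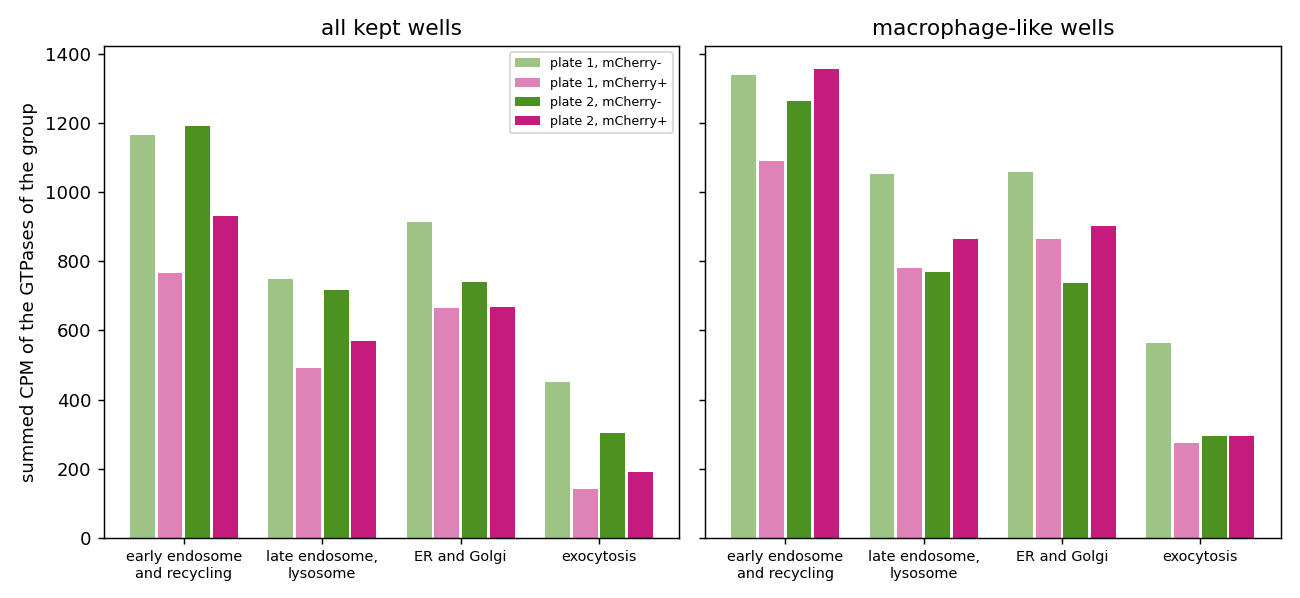
Summed CPM of the GTPases of 4 role groups in each sum of wells, for all kept wells (left) and macrophage-like wells (right), in pink for mCherry+ and green for mCherry-, paler for plate 1. Over all kept wells the mCherry+ bar is lower on both plates in each group, for example 765 against 1164 CPM for the early endosome and recycling group on plate 1, while in macrophage-like wells the early endosome, late endosome and Golgi groups are lower in mCherry+ on plate 1 and higher on plate 2. The left bars include muscle-like wells. Without these the plate 2 totals were 1294240 UMIs in mCherry+ (1952890 with them) and 951815 UMIs in mCherry- (983833 with them). Their part in the bars was not tested.

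In macrophage-like wells alone, 28 members were tested and 0 were called by edgeR, where 3.64% of 5223 genes were called. DESeq2 called 0, beside 1.53% of all genes. By edgeR, 2 members (7.14%) had an unadjusted p under 0.05, beside 16.1% of all genes. The median fold change was -0.12, beside -0.02 for all genes, and 17 of 28 members (60.7%) lay below 0, beside 51.5% of all genes. The plates did not share a direction. The median was -0.60 on plate 1 and 0.19 on plate 2, and 18 of 28 members (64.3%) had opposite signs on the plates, beside 38.1% of all genes. Summed over the group, the 16 early endosome and recycling GTPases lay at 1089 CPM in mCherry+ and 1338 CPM in mCherry- wells of plate 1, and at 1355 and 1265 CPM on plate 2.

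The 2 members with an unadjusted p under 0.05 were RAB20 and rab11fip1b. RAB20, whose CPM values are given above, had 11 UMIs in mCherry+ and 115 in mCherry- wells of plate 1 and 67 and 55 on plate 2, with both mCherry+ sums below both mCherry- sums in CPM and a log2 fold change of -1.31 (SE 0.44, edgeR adjusted p 0.163). The difference was much larger on plate 1 (-2.30) than on plate 2 (-0.51). It was seen in 9 of 25 mCherry+ and 39 of 53 mCherry- wells of plate 1, and in 39 of 75 and 31 of 53 wells of plate 2. rab11fip1b, which links Rab11 vesicles to motors, lay at 67.3 and 32.7 CPM on plate 1 and 52.9 and 11.9 CPM on plate 2, with both mCherry+ sums above both mCherry- sums, from 6 to 48 UMIs a sum, and a log2 fold change of 1.47 (SE 0.46, edgeR adjusted p 0.131). Both passed the threshold when wells under 2000 UMIs, 3 of 206, were left out, where 7.84% of all genes were called (edgeR adjusted p 0.0322 for RAB20 and 0.0440 for rab11fip1b), with fold changes of -1.31 and 1.48.

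Of the remaining members RAB22A had the highest fold change, at 135 and 49.1 CPM on plate 1 and 80.5 and 69.6 CPM on plate 2 (log2 fold change 0.75, SE 0.37, edgeR adjusted p 0.375), and its difference was mostly that of plate 1. rab1aa, of the Golgi group, was at 0.48 (SE 0.35) and rab5b at 0.37 (SE 0.46). The lowest fold changes after RAB20 were rab44 (-0.98, SE 0.60), RAB8A (-0.91, SE 0.48) and RAB35 (-0.82, SE 0.42), none of which passed. rab44 rested on plate 1, with 3 UMIs in mCherry+ and 49 in mCherry- wells there (11.9 and 89.1 CPM) but 38.6 and 35.8 CPM on plate 2. RAB8A, by contrast, differed alike on both plates, at 19.8 and 38.2 CPM on plate 1 and 19.8 and 35.8 CPM on plate 2, from 5 to 21 UMIs a sum.

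The Rab5 and Rab7 genes, which mark early and late phagosomes, differed little beside their SE. RAB5A (ENSDARG00000018602) had a log2 fold change of 0.09 (SE 0.27) and RAB5C of 0.29 (SE 0.31). RAB7A (ENSDARG00000020497) was at -0.39 (SE 0.30), RAB7A (ENSDARG00000021287) at -0.21 (SE 0.37) and RAB7A (ENSDARG00000087243) at 0.36 (SE 0.33). Each of these 5 differences was smaller than 1.5 SE, which does not show that the gates are alike.

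Both mCherry+ sums lay above both mCherry- sums in 6 of 28 members (21.4%, with 24% of all genes tested), namely RAB22A, RAB5A (ENSDARG00000018602), RAB5C, rab11fip1b, rab1aa and RAB7A (ENSDARG00000087243). They lay below in 4 (14.3%, with 20.8% of genes), RAB20, RAB11B, RAB35 and RAB8A. These shares were at or under those of genes in general. Beside these values, the 9 neutrophil markers summed to 1690 to 1748 CPM in mCherry+ and 2953 to 3894 CPM in mCherry- macrophage-like wells, with 4 of 9 lower in both mCherry+ sums and none at 0, and the 24 macrophage markers summed to 21166 to 21909 and 14256 to 14387 CPM. The part of either in the member values was not tested.

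**Figure D4:**
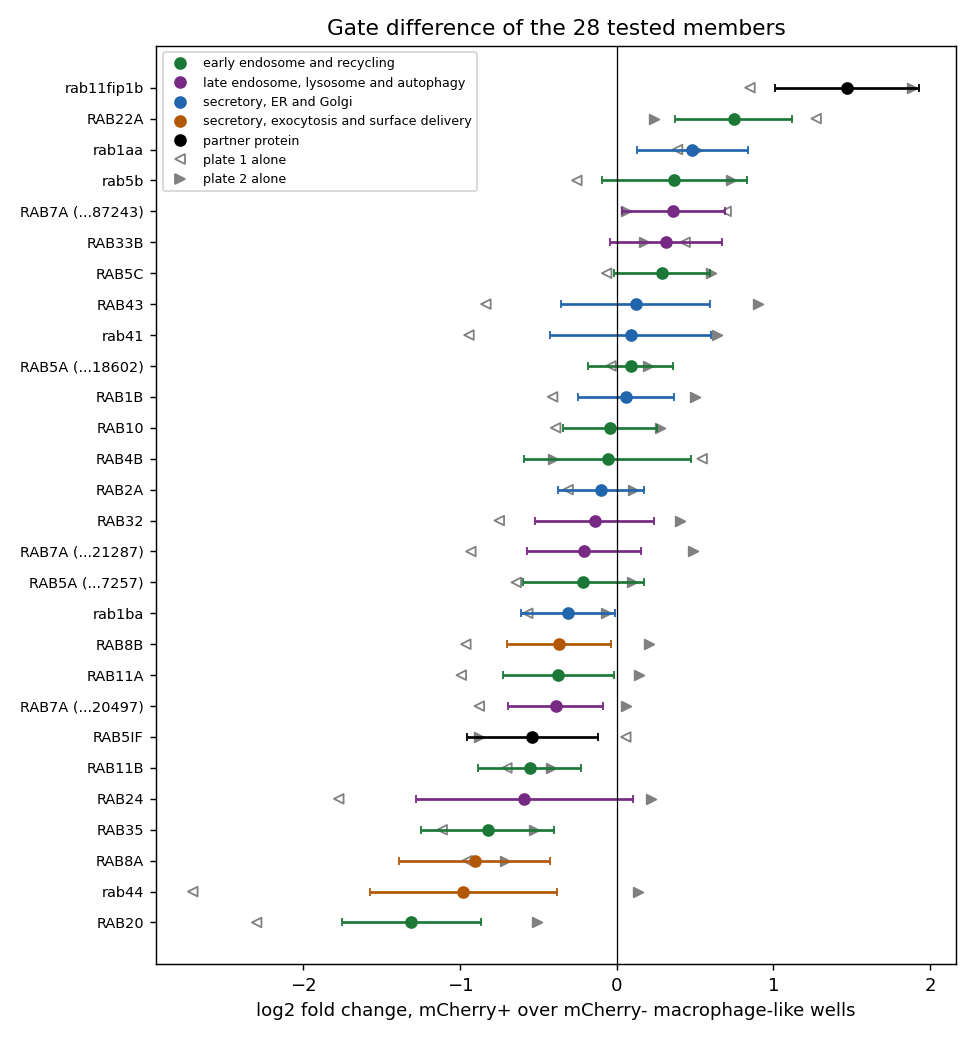
Log2 fold change of each of the 28 tested members between mCherry+ and mCherry- macrophage-like wells, with points and bars for the edgeR estimate and its SE, colored by role, and triangles for each plate alone (open for plate 1, filled for plate 2). The estimates run from -1.31 (RAB20) to 1.47 (rab11fip1b), and in 18 of 28 members the triangles fall on opposite sides of 0.

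Between the plates, 0 of 28 members were called in macrophage-like wells by edgeR or DESeq2, and 0 had an unadjusted p under 0.05. Of 5223 genes, edgeR called 0%, and 370 had an unadjusted p under 0.05. Fold changes of plate 2 over plate 1 ran from -0.87 (rab11fip1b) to 0.46, with a median of -0.22 for the members and -0.04 for all genes. The exocytosis group had 3 of 3 members below 0 (median -0.47), the Golgi group 5 of 6 (median -0.42) and the late endosome group 4 of 6 (median -0.38). The early endosome and recycling group had 5 of 11 below 0 (median 0.01). Of all genes tested, 53.0% lay below 0. From plate 1 to plate 2 the exocytosis GTPases summed to 564 and 294 CPM in mCherry- wells, but to 273 and 296 CPM in mCherry+ wells. The plate term takes both gates together, so 0 calls do not show that the plates are alike within a gate.

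RAB33B, which acts at the Golgi and in autophagosome formation, was spread unlike the other members. Of its 537 UMIs over all wells, 170 (31.7%) lay in the 48 wells of cluster 6. That cluster had a median of 1028 UMIs and no raised marker list. RAB33B was among its 10 leading genes although the clustering did not use it. Cluster 6 is called shallow for its median, but not all its wells were. All kept wells of 500 to 1000, 1000 to 2000 and 2000 to 5000 UMIs held 41, 24 and 49.0 RAB33B UMIs. Together these are fewer than the 170, so part of the 170 came from deeper wells of the cluster. Its level there was 878 CPM, while it lay at 50.0 to 67.1 CPM in every macrophage-like, neutrophil-like and progenitor-like cluster. A second shallow unnamed cluster (13 wells, median 1362 UMIs) was at 188 CPM from 6 UMIs, and the cluster led by collagen genes at 120 CPM. In cluster 6 it had UMIs in 41 of 48 wells, and its sums were 1053 CPM (mCherry+) and 1365 CPM (mCherry-) on plate 1 and 335 and 1004 CPM on plate 2. The raised level was thus found in both gates and on both plates. By depth, RAB33B went from 1676 CPM in wells of 500 to 1000 UMIs to 196 CPM in wells of 2000 to 5000 UMIs. It then lay at 65.3 CPM at 5000 to 10000 UMIs, 77.1 CPM at 10000 to 20000 and 54.4 CPM at 20000 and over. In the lowest, the 2000 to 5000 and the highest of these ranges the other 48 members together lay at 2739, 3197 and 1728 CPM. In UMIs per well RAB33B did not fall throughout, with 1.17 at 500 to 1000 UMIs, 0.497 at 5000 to 10000 and 2.41 at 20000 and over. The part of depth in this level was not tested. Between gates in macrophage-like wells RAB33B was at 79.2 and 52.7 CPM on plate 1 and 48.5 and 43.8 CPM on plate 2, with a log2 fold change of 0.32 (SE 0.36, edgeR adjusted p 0.766).

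**Figure D5:**
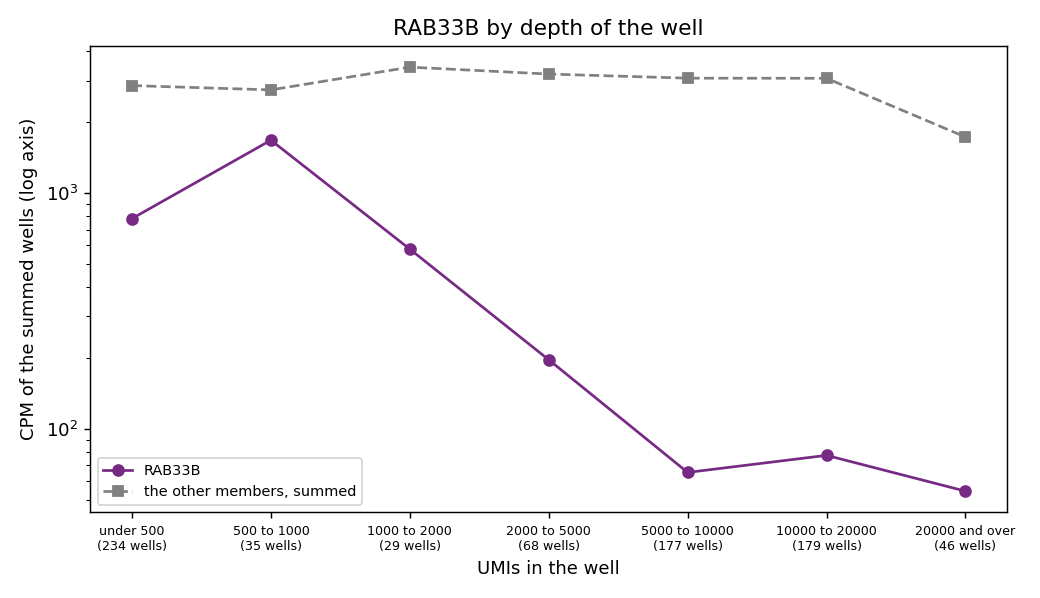
CPM of RAB33B (purple) and of the other 48 members summed (grey) by the number of UMIs in the well, on a log axis, with all 768 wells in 7 bins. RAB33B is highest at 1676 CPM in wells of 500 to 1000 UMIs and lowest at 54.4 CPM in wells of 20000 UMIs and over, while the other members stay between 1728 and 3421 CPM.

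The proteins that switch and read the Rab GTPases were taken as a list of 124 gene names, of which 99 matched 95 gene identifiers. In macrophage-like wells 36 of these were tested, and 2 were called by edgeR, both higher in the mCherry+ gate, where 2.03% of all genes tested were called higher and 1.61% lower. At an unadjusted p under 0.05, 10 of the 36 passed, beside 16.1% of all genes. The list is not separate from the members, since it also holds RAB3IL1, rab11fip1b and rab11fip3, and rab11fip1b is among the 10. The median fold change of the 36 was 0.32, where the median of all genes was -0.02. The 2 called genes were rin3, an exchange factor for the Rab5 family, and TBC1D4, a GTPase-activating protein for Rab8 and Rab10. rin3 lay at 55.5 CPM in mCherry+ and 16.4 CPM in mCherry- wells of plate 1 and at 105 and 21.9 CPM on plate 2 (log2 fold change 2.01, SE 0.41, edgeR adjusted p 0.0327). TBC1D4 lay at 95.1 and 32.7 CPM on plate 1 and at 109 and 21.9 CPM on plate 2 (log2 fold change 1.88, SE 0.39, edgeR adjusted p 0.0333). Both genes were thus higher in the mCherry+ gate on each plate, from 9 to 99 UMIs a sum. By kind, they were 1 of 9 exchange factors and 1 of 9 GTPase-activating proteins tested, beside 15 effectors and tethers and 3 GDP dissociation inhibitors and prenylation proteins.

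Over all kept wells 66 genes of the list were tested and 2 were called, both lower in the mCherry+ gate, where 2.32% of all genes were called lower and 2.42% higher. These were dennd4a, an exchange factor for Rab10, at 107 and 541 CPM on plate 1 and 116 and 328 CPM on plate 2 (log2 fold change -1.97, SE 0.41, edgeR adjusted p 0.0290), and mical1, an actin-oxidizing enzyme that binds Rab1, Rab8 and Rab35, at 103 and 231 CPM on plate 1 and 25.6 and 157 CPM on plate 2 (-1.91, SE 0.42, edgeR adjusted p 0.0347). The neutrophil-like share given above was also lower in the mCherry+ gate. From plate 1 to plate 2 the summed neutrophil markers went from 21034 to 3694 CPM in mCherry+ and from 38592 to 43886 CPM in mCherry- sums. In the same order dennd4a went from 107 to 116 and from 541 to 328 CPM, and mical1 from 103 to 25.6 and from 231 to 157 CPM. The part of the neutrophil-like share in either gene was not tested.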

How the data were processed

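Tails of mpeg1:EGFP; runx1+23:mCherry embryos were measured by SORT-seq on 2 plates. The authors deposited 1 table of genes by wells per plate, and the submitters' processing notes name BWA, Seurat and the GRCz11 build. The deposited values are expected counts, estimated counts for which the authors corrected the distinct UMIs for tag collisions. All values lay within 0.005 of that correction for a UMI of 6 bases, and it added 0.0279% to the UMIs of the members. Spike-ins (1.13% of counts) were set aside. A gene name table gave 17425 of 22342 identifiers a symbol. Members, roles and gene lists were chosen with earlier results of these data known.

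Kept wells were scaled to 10000 UMIs and clustered without the Rab genes (2000 variable genes, 30 principal components, 15 neighbors, Leiden resolution 1, seed 0; scanpy 1.11.5, leidenalg 0.10.2, Python 3.11.15). A cluster was named when at least 3 markers of a list were raised by 1 log2 unit on mean log2(CPM + 50) and its leading genes and depth did not go against the name. No doublet caller was run, since 1 cell was sorted per well. Expected counts were summed per plate and gate and rounded. edgeR 4.0.16 (R 4.3.3) with filterByExpr, TMM and a plate block was the test. Alternatives were DESeq2 1.42.0, no filter, no block, well minimums of 1000 and 2000 UMIs, thinning, Leiden resolutions of 0.5 and 2, and leaving out wells or a plate. The block follows the labels, which put both gates on each plate. Plate deviations of the gates correlated at 0.11 over genes for all wells and 0.09 for macrophage-like wells. The fit left 1 residual degree of freedom, with 8.28 and 8.62 prior degrees. edgeR was also run on simulated counts with the same spread for every gene and no plate effect. That setting is simpler than these plates, so it does not measure the error of the calls here. Genes named are the 10 members with the most UMIs in macrophage-like wells, every called member, the 4 largest rises and falls between gates in macrophage-like wells and the 3 highest and lowest class ratios. RAB33B, RAB32, RAB24, RAB6B, RAB3A and RAB5IF, and the remaining members given with values, were named after their values were seen.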

Additional observations from a re-analysis of the deposited data

Results flagged for a closer look

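The 234 wells under the minimum of 500 UMIs entered no comparison. RAB33B had 33 UMIs there, in 23 wells, which comes to 779 CPM, between the level of the shallow cluster and that of deep wells. The other members together had 121 UMIs (2857 CPM) in the same wells. These UMIs lay in wells that the comparisons left out.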

How the results depend on the processing

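The count of members called between gates over all kept wells was 1. It was 2 with no filter on low counts, where RAB20 joined rab44 (-1.67, adjusted p 0.0196), and 0 without the replicate block, with wells thinned to 2000 UMIs, without the largest well of each sum, without muscle-like wells and without neutrophil-like wells. With no filter, 4.95% of 22241 genes were called. Of all genes, 0.576% were called without the block, 0 of 3089 after thinning, 2.37% without the largest wells, 0.460% without muscle-like and 1.11% without neutrophil-like wells. Leaving out neutrophil-like wells was chosen after seeing the data. The block changed no other call. The count in macrophage-like wells was 2, not 0, at a minimum of 2000 UMIs per well, where 7.84% of all genes were called, beside 3.64% at 500 UMIs, and the prior degrees of freedom were 36.9. The cause was not tested. The number of members whose macrophage-like and neutrophil-like sums do not overlap was 8, 11 with the mean over wells of CPM, and 22 of 49 in the mCherry- gate alone, where 2 sums stand against 2 and 23.9% of genes were higher and 18.5% lower without overlap. With 1 plate left out, the median fold change ran from -0.54 to -0.20 over all kept wells and from -0.60 to 0.19 in macrophage-like wells. Of 19 named members, 7 changed sign on 1 plate alone over all kept wells, RAB10 (-0.60 to 0.30), RAB11A (-0.76 to 0.0704), RAB22A (-0.00771 to 0.16), RAB2A (-0.54 to 0.17), RAB5C (-0.75 to 0.056), RAB7A (ENSDARG00000021287, -2.11 to 0.41) and rab11fip1b (-1.16 to 0.46). In macrophage-like wells 11 of 19 did, RAB10 (-0.39 to 0.28), RAB11A (-0.99 to 0.14), RAB1B (-0.41 to 0.50), RAB2A (-0.31 to 0.10), RAB5A (ENSDARG00000018602, -0.0362 to 0.20), RAB5C (-0.064 to 0.60), RAB7A (ENSDARG00000020497, -0.88 to 0.0567), RAB7A (ENSDARG00000021287, -0.93 to 0.49), RAB8B (-0.96 to 0.20), rab44 (-2.71 to 0.13) and rab5b (-0.25 to 0.73). None of these was called, and the values of single plates have no test.

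Under the other alternatives, the fold changes between gates over all kept wells that changed sign were RAB5C (0.11), RAB11A (0.11) and rab1aa (0.80) with thinning, and rab11fip1b (0.99) and rab1aa (0.0904) without neutrophil-like wells. In macrophage-like wells they were RAB5A (ENSDARG00000018602, -0.0255) and RAB1B (-0.0592) with no filter, RAB1B (-0.0193) without the replicate block, and RAB2A (0.0841), RAB7A (ENSDARG00000021287, 0.0716), RAB11A (0.18) and RAB10 (0.0666) with thinning. Between plates they were RAB20 (0.00934) and RAB5A (ENSDARG00000018602, 0.12) with thinning. None of these was called. Apart from leaving out a plate, 511 values of named members under an alternative were computed, of which 489 kept their direction and side of the threshold, 14 changed direction, 5 lost a call, that of rab44, and 3 gained one.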
